A study of Brassica napus with 45 samples.

Results

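Leaves of Brassica napus (rapeseed) line 2, which the sample titles describe as overexpressing BnNAC038, were compared with wild type leaves after abscisic acid (ABA) treatment. The comparison used 6 of the 45 libraries of the series, chosen by genotype and treatment: line 2 given 50 µM ABA for 3 h (3 libraries), against the wild type of the overexpression experiment given the same treatment (3 libraries). Seedlings of both genotypes stood in Hoagland's solution with a long light period. Untreated leaves and leaves from seedlings given 20% polyethylene glycol (PEG) for 6 h, with 3 libraries each of line 2 and wild type, served as a second look at the same genotypes. ABA-treated overexpression line 1 (3 libraries) is given beside line 2. The wild type of the knockout experiment, with the same treatments, served to class genes by ABA response and to see which genes were present. Its library labels differ from those of the overexpression wild type, while the titles call both wild type. The genotype field of the 3 ABA-treated line 2 libraries names BnNAC042, BnNAC043 and BnNAC044, 1 per library, where the titles say BnNAC038, and the titles were followed. The labels do not state the promoter that drives the transgene, how many clones a line comprises or whether plants were pooled. The titles speak of biological replicates but name no plants, so the spread between libraries may be technical. The main limma p-values measure this spread within groups, shared over all 27 libraries of the overexpression experiment, and not that of the 6 alone.

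NAC proteins are a large plant family of transcription factors that share a DNA-binding domain at the N-terminal end and differ in the rest of the protein, and many take part in stress responses, senescence and organ growth. ABA is the hormone of water deficit: it binds receptors of the PYR/PYL/RCAR family, the bound receptors inhibit clade A protein phosphatases, and the SnRK2 kinases then freed activate transcription factors that raise protective genes and close stomata. Brassica napus arose from a cross of Brassica rapa and Brassica oleracea and carries a gene set from each, the A and C subgenomes.

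The deposited values are TPM, a unit that scales each transcript by its length and by the library's total and keeps no read depth, and they were summed to genes. From 38105 to 40371 genes reached 1 TPM in each ABA-treated library of the 3 genotypes. The identifiers carry a chromosome and a running number, and they matched none of the 123214 genes of the RefSeq table at hand, so the level of BnNAC038 itself, leaf marker genes and the genes of ABA signalling were not analysed here. Across genes, correlations of log2(TPM+1) were at least 0.981 between line 2 libraries and at least 0.977 between wild type libraries. Wild type replicate 1 lay farther from line 2, with correlations of 0.962 to 0.965, than wild type replicates 2 and 3, with 0.969 to 0.972.

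Wild type replicates 2 and 3 carried genes that were under 0.5 TPM in the untreated and PEG-treated wild type leaves of the same experiment. A line-only list held 11 genes with at least 5 TPM in all 6 untreated and PEG-treated line 2 libraries and under 0.5 TPM in all 6 such wild type libraries. Their summed level under ABA was 220.6, 193 and 210.1 TPM in line 2 and 199.4, 220.5 and 199.6 TPM in line 1, against 0.138, 101 and 79.1 TPM in wild type. Untreated and PEG-treated wild type libraries had sums of 0.120 to 0.757 TPM, kept low by the rule of the list, which no ABA-treated library entered. ABA-treated wild type replicate 1 was as low as those libraries, while all 11 genes were above 1 TPM in replicates 2 and 3, and none was in replicate 1. Set against the line 2 mean of each gene, the levels in replicate 2 ran from 0.376 to 0.623 with a median of 0.511, and those in replicate 3 from 0.292 to 0.435 with a median of 0.365. The 11 genes lay on 8 chromosomes, 7 of them in the A and 4 in the C subgenome, and 2 of them had identical values in all libraries.

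The reverse list showed the opposite shift in the same libraries by sum and median, though not in every gene. It held 16 wild-type-only genes (at least 5 TPM in all 6 untreated and PEG-treated wild type libraries, under 0.5 TPM in all 6 of line 2). They summed to 1.37, 1.82 and 0.0971 TPM in line 2 under ABA, against 442, 204 and 350 TPM in wild type. Relative to wild type replicate 1, the median level of these genes was 0.480 in replicate 2 (range 0.228 to 1.16) and 0.758 in replicate 3 (range 0.531 to 1.37). Some genes therefore stood above replicate 1. The 16 genes had 15 distinct profiles. Neither list overlapped between line 2 and wild type under ABA, with an exact two-sided permutation p of 0.1 for each sum, the smallest that 3 against 3 libraries allow. Both directions are drawn in the bars of summed TPM. What separates replicates 2 and 3 from replicate 1 was not tested, and the counts of calls, the medians of gene classes and the named genes are given with all wild type libraries and with replicate 1 alone.

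**Figure D1:**
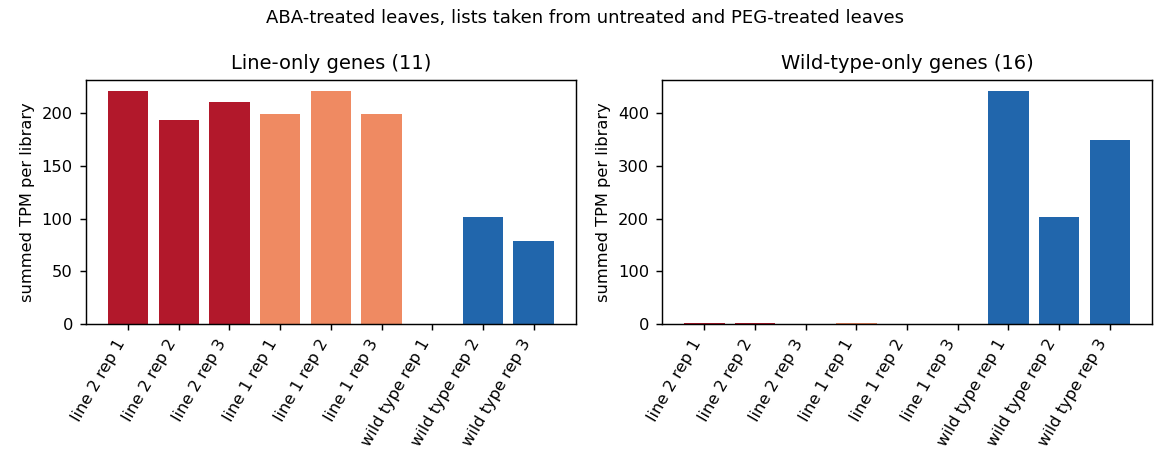
Summed TPM (vertical axes, linear, from 0) of the 11 line-only genes (left) and the 16 wild-type-only genes (right) in each ABA-treated library of line 2, line 1 and wild type, 1 bar per library. Wild type replicate 1 stands at 0.138 TPM for the line-only genes, while replicates 2 and 3 stand at 101 and 79.1 TPM.

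Under ABA, 1253 of 40056 genes tested differed between line 2 and wild type (3.13%, limma on log2(TPM+1), Benjamini-Hochberg adjusted p under 0.05). In line 2, 736 of them were higher (1.84% of genes tested) and 517 were lower (1.29%). A difference of at least 2-fold was reached by 531 of these genes, 264 higher and 267 lower. The median difference over all genes tested was 0.04 on the log2 scale. Values of line 2 and wild type did not overlap for 1237 of the 1253 genes called, and for 8225 (20.5%) of all genes tested. The count fell to 676 (355 higher, 321 lower) without wild type replicate 1. It fell to 761 (405 and 356) without line 2 replicate 1 and to 793 (441 and 352) without line 2 replicate 3. When only the 6 ABA libraries set the spread it was 537 (258 and 279). Among genes of at least 5 TPM it was 789, but of only 20446 genes tested, a larger share than 3.13%.

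With wild type replicate 1 alone, 956 genes were called (2.39%, limma), 583 higher in line 2 (1.46%) and 373 lower (0.931%). The lone library was assumed to vary like the other groups. Of these calls 704 reached 2-fold, 416 higher and 288 lower. The comparisons shared 748 calls of the same direction, 417 higher and 331 lower, which is 59.7% of the calls with all wild type libraries and 78.2% of those with replicate 1. None was opposite. A further 505 genes were called only with all wild type libraries, and 208 only with replicate 1, and all of these had the same sign in both. Without the 1 TPM minimum 72056 genes were tested, and lower genes outnumbered higher ones among the calls, so the surplus of higher genes turned round. The share called was smaller there than 2.39%, and it was larger among the 20446 genes tested at 5 TPM or more.

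The genes named here had the largest differences among those called in both comparisons with at least 5 TPM in the higher group and no overlap. BnaC09G0253600ZS, on chromosome C09, had 50.1, 36.3 and 32.7 TPM in line 2 and 17.9, 47.1 and 54.9 TPM in line 1, against 2.43, 3.20 and 4.49 TPM in wild type. Every line 2 value was above every wild type value, and here wild type replicates 2 and 3 stayed near replicate 1. The difference was 3.22 on the log2(TPM+1) scale (SE 0.34, limma adjusted p = 1.81e-06) and 3.54 (SE 0.49, limma adjusted p = 7.96e-05) with replicate 1 alone. BnaC07G0041800ZS had 17.3, 19.5 and 16.5 TPM in line 2, against 0, 4.58 and 1.29 TPM in wild type. It was at 0 in all 3 untreated wild type libraries too, and its difference under ABA was 3.00 (SE 0.35, limma adjusted p = 7.28e-06). With only the 6 ABA libraries setting the spread, the limma adjusted p was 0.00138 for BnaC09G0253600ZS and 0.0472 for BnaC07G0041800ZS (SE 0.53). Single wild type libraries set its size: the fitted difference was 2.39 without replicate 1 and 3.63 without replicate 2, and with replicate 1 alone, which is listed at 0, 4.23 on a scale that then depends on the added constant, with 4.36 for an added 0.1 and 1.76 for an added 5 over all wild type libraries.

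The genes named as lower in line 2 both lay on chromosome A04. BnaA04G0023300ZS had 0.496, 0.243 and 0.254 TPM in line 2 under ABA, against 480, 213 and 289 TPM in wild type. The difference was -7.87 (SE 0.24, limma adjusted p = 3.82e-16) and -8.50 with replicate 1 alone. Replicate 1 had the highest of the wild type values, and all were far above line 2. BnaA04G0056400ZS had 3.76, 2.85 and 2.91 TPM in line 2, against 356, 168 and 230 TPM in wild type. The difference was -5.86 (SE 0.34, limma adjusted p = 8.90e-11), and -6.42 with replicate 1 alone. In line 1, against the same wild type libraries, the difference was -7.57 for BnaA04G0023300ZS and -6.40 for BnaA04G0056400ZS. With only the 6 ABA libraries setting the spread, the limma adjusted p was 8.02e-05 for BnaA04G0023300ZS and 0.000143 for BnaA04G0056400ZS. Its mean was 2.84 ± 2.49 TPM in untreated line 2 and 33.1 ± 1.14 TPM in untreated wild type (SD, n = 3 each), so the wild type level differed between the treatments far more than that of line 2. The difference under ABA exceeded that in untreated leaves by -3.09 (SE 0.57, limma adjusted p = 0.0492) with replicate 1 alone and by -2.52 (SE 0.48, limma adjusted p = 0.0561) with all wild type libraries. The plot of these genes by treatment shows the order of line 2 and wild type to be the same in untreated, ABA-treated and PEG-treated leaves.

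**Figure D2:**
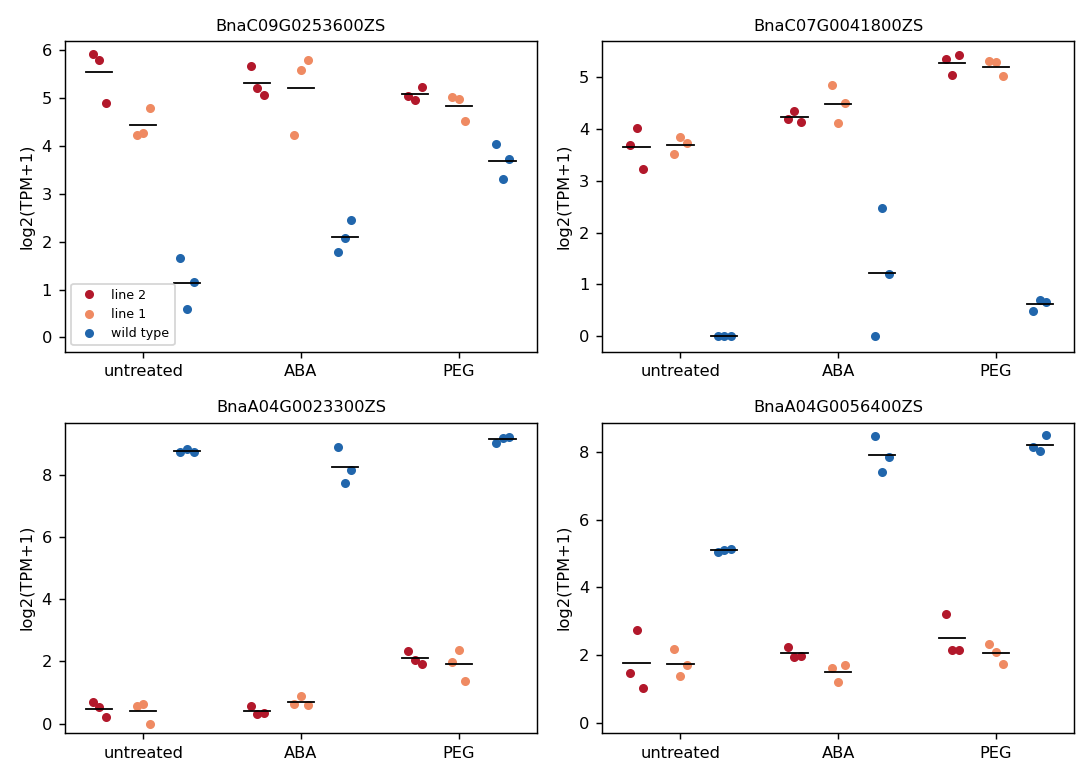
log2(TPM+1) (vertical axes) of the 4 genes named for the comparison of line 2 and wild type, in untreated, ABA-treated and PEG-treated leaves, with 1 point per library and a line at the mean of 3 libraries. Line 2 stands above wild type in the upper panels and below it in the lower panels in each treatment, and wild type libraries are spread widest under ABA for BnaC07G0041800ZS.

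Among genes called with replicate 1 alone and not with all wild type libraries, BnaC06G0382800ZS had 434, 370 and 509 TPM in line 2, against 1.20, 258 and 199 TPM in wild type. With all wild type libraries its difference of 3.17 had an SE of 1.01 and a limma adjusted p of 0.106, while with replicate 1 alone it was 7.63 (SE 0.49, limma adjusted p = 1.19e-09). Untreated wild type had 0.337, 1.18 and 0.608 TPM of it, which is the level of replicate 1. BnaA07G0196400ZS followed the same pattern, with 42.2, 35.7 and 48.1 TPM in line 2, against 0, 24.6 and 20.1 TPM in wild type. Among genes lower in line 2, BnaC05G0241800ZS had 4.47, 7.14 and 6.19 TPM in line 2, against 24.5, 7.57 and 20.1 TPM in wild type, so that replicate 2 was close to line 2 and replicate 3 was not. BnaA04G0300000ZS had 0.641, 0 and 1.73 TPM in line 2, against 6.66, 2.49 and 0.517 TPM in wild type, and its groups overlapped once replicate 3 was included. Untreated wild type had 1.46, 0.643 and 1.89 TPM of it and PEG-treated wild type 0.969, 1.46 and 2.53 TPM, so here replicate 1 was the library apart. Its difference was -1.06 with all wild type libraries and -2.22 with replicate 1 alone. In untreated leaves it was not called (-0.43, limma adjusted p = 0.628).

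The place of wild type replicates 2 and 3 between replicate 1 and line 2 was measured gene by gene, on the linear TPM scale, with 0 at replicate 1 and 1 at the line 2 mean. The genes were 319 of the 584 that were called in the same direction with at least 2-fold in both untreated and PEG-treated leaves, namely those whose line 2 mean and replicate 1 stood at least 5 TPM and 2-fold apart under ABA, a rule set after values had been seen. Replicate 2 had a median position of 0.514 (quartiles 0.368 and 0.618) and replicate 3 of 0.293 (quartiles 0.156 and 0.405). Replicate 2 lay strictly between for 299 genes (93.7%) and replicate 3 for 289 (90.6%). The same measure with replicate 1 as the zero gave medians of 0.00154 and 0 in the untreated leaves (326 genes). In the PEG-treated leaves (381 genes) they were 0 and 0.0218, with 45.7% to 57.7% of genes between over both treatments. The genes had been called in these leaves, which favours genes whose wild type libraries agreed there. These medians are therefore no independent control for the ABA-treated libraries. With ABA-treated replicate 2 as the zero, 118 genes met the rule and the medians were -0.42 for replicate 1 and -0.0107 for replicate 3, and with replicate 3 as the zero, 203 genes gave -0.29 for replicate 1 and 0.368 for replicate 2. Genes higher and lower in line 2 were placed alike in direction but not in size: for the 177 higher genes the medians were 0.432 in replicate 2 and 0.319 in replicate 3, and for the 142 lower genes 0.572 and 0.263. Positions under 0.15 were found for 33 genes in replicate 2 and 79 in replicate 3, of which 11 were under it in both, and BnaC09G0253600ZS was among these with 0.0206 and 0.0551. Because replicate 1 also sets the zero point, its own noise enters every position.

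**Figure D3:**
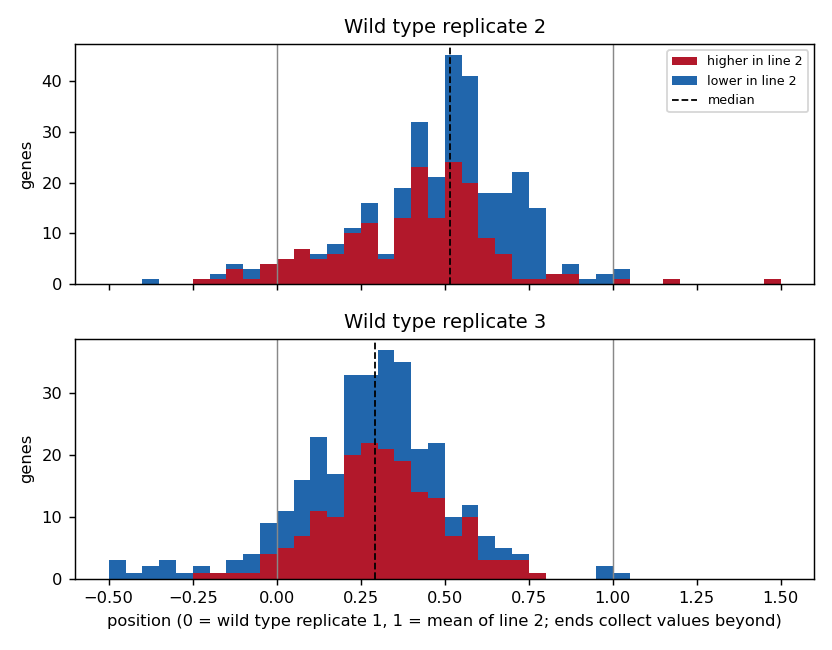
Number of genes (vertical axes) by position between wild type replicate 1 (0) and the line 2 mean (1) under ABA, for wild type replicate 2 (upper) and replicate 3 (lower), in 319 genes that were higher (red) or lower (blue) in line 2. The dashed medians stand at 0.514 and 0.293, away from both ends.

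Most calls under ABA had also been seen without ABA. In untreated leaves 2965 of 45544 genes were called (6.51%, limma), 1934 higher in line 2 (4.25%) and 1031 lower (2.26%). In PEG-treated leaves 3651 were called (8.02%), 1929 higher (4.24%) and 1722 lower (3.78%). Both were fitted without any ABA library, and 39649 genes were tested in all conditions. Of 1219 genes called under ABA among these, 862 were called in the same direction in untreated leaves, 508 higher and 354 lower in line 2, and none in the opposite one. They made up 70.7% of the ABA calls and 32.8% of the untreated calls. In PEG-treated leaves 803 were called alike (65.9% of the ABA calls, 25.2% of the PEG calls) and 8 were opposite. The sign of the difference was the same for 96.1% of the ABA calls in untreated leaves and for 91.3% in PEG-treated leaves. Across all genes tested the log2 differences under ABA and in untreated leaves had a Pearson r of 0.679 and a Spearman rho of 0.474, and those under ABA and PEG 0.567 and 0.334, where genes are not independent replicates.

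When wild type replicate 1 stood alone, 746 of 941 ABA calls (79.3%) were called alike in untreated leaves and 734 (78.0%) in PEG-treated leaves. With all wild type libraries, 680 genes were called alike in all 3 conditions, 392 higher and 288 lower in line 2, and 226 genes were called under ABA in neither of the others, 138 higher and 88 lower. Of 737 genes called under ABA in both ways, 585 repeated in both other conditions and 48 in neither. The scatter of differences shows the called genes along a band from lower left to upper right. Among genes of at least 5 TPM, 552 of 753 calls (73.3%) were repeated in untreated leaves.

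**Figure D4:**
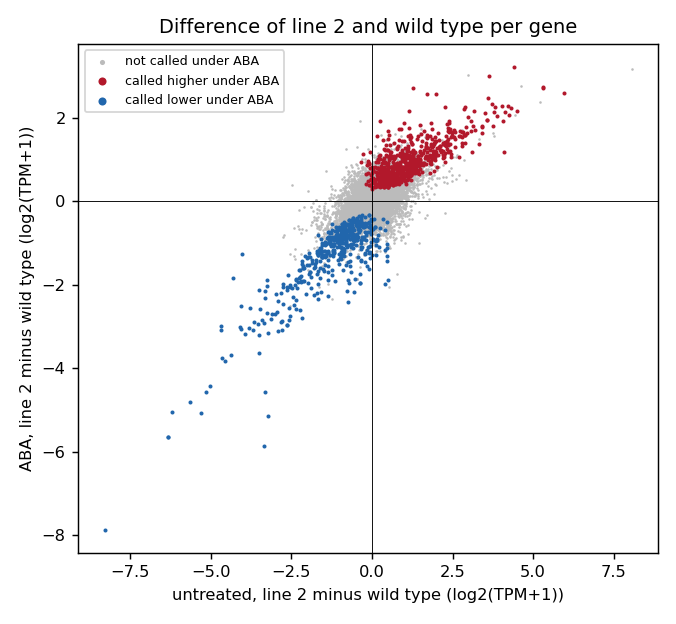
Difference between line 2 and wild type on the log2(TPM+1) scale under ABA (vertical axis) against the same difference in untreated leaves (horizontal axis), 1 point per gene. Of the coloured genes, called under ABA, 96.1% have the same sign on both axes.

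Genes that differed by at least 2-fold in untreated leaves mostly had the same direction under ABA. They were chosen for their untreated difference, so their untreated medians are raised by the choice and the size under ABA is set beside that under PEG. The 629 such genes higher in untreated line 2 had a median difference of 1.42 untreated, 1.01 under PEG and 0.83 under ABA, on the log2 scale. Under ABA, 323 of them were called higher and none lower, and 608 had a positive difference. The median was 1.12 against wild type replicate 1, but 0.66 against replicate 2 and 0.67 against replicate 3. The 401 genes lower in untreated line 2 had medians of -1.50 untreated, -1.16 under PEG and -0.96 under ABA, with 236 called lower under ABA and none higher. Against the single wild type libraries their medians were -1.22, -0.83 and -0.98. In line 1, which shares these wild type libraries, the medians under ABA were 0.66 and -0.996.

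A share of the differences lay in runs of neighbouring genes. From untreated and PEG-treated leaves, 12 segments were taken in which at least 8 of 20 consecutive genes were called in 1 direction by at least 1.5-fold in both. All 12 were on A chromosomes (A01, A02, A04, A06, A07 and A10) and none on C chromosomes. They held 349 genes tested under ABA, of which 155 were called (44.4%, against 2.77% outside), making up 12.4% of all calls. The segments were chosen for genes that differed between the same genotypes without ABA. A share above that outside therefore follows from the choice and does not measure an effect of neighbourhood. In the 7 segments higher in line 2, 75 of 172 genes were called higher (43.6%) and 4 lower. Their median difference was 0.57 with all wild type libraries, 0.83 with replicate 1 alone, and 0.40 and 0.45 against replicates 2 and 3, and it was 0.26 when 5 in place of 1 was added before the logarithm. In the 5 segments lower in line 2, 73 of 177 genes were called lower (41.2%) and 3 higher, with a median of -0.37, and -0.53 with replicate 1 alone.

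Summed over its genes, each of the 12 segments separated line 2 from wild type under ABA with no overlap (exact two-sided permutation p of 0.1 each, the smallest possible). The segment on A07 from running number 2954 to 2986 summed to 1123, 1111 and 1131 TPM in line 2, against 478, 813 and 636 TPM in wild type. Untreated leaves had 1208 ± 66.9 TPM in line 2 and 480 ± 16.9 TPM in wild type (SD, n = 3 each), so replicate 1 was at the untreated wild type level there and replicates 2 and 3 were above it. The segment on A04 from 461 to 593, which holds BnaA04G0056400ZS, summed to 567, 510.1 and 559 TPM in line 2, against 1326, 878 and 1068 TPM in wild type. Untreated leaves had 476 ± 10.1 TPM of it in line 2 and 1027 ± 9.95 TPM in wild type (SD, n = 3 each). By this sum replicate 3 and not replicate 1 was nearest to the untreated wild type. That order rests on BnaA04G0056400ZS, which alone had 356, 168 and 230 TPM in ABA-treated wild type, against a mean of 33.1 TPM in untreated wild type. On A02, the segment from 3697 to 3792 had 477, 489 and 468 TPM in line 2, against 218, 310.5 and 302 TPM in wild type. Line 1 stood close to line 2, with 475, 448 and 467 TPM in this A02 segment. It had 1068, 1121 and 1053 TPM in the A07 segment and 576, 558 and 555 TPM in the A04 segment from 461 to 593. Over the 12 segments, the sum in replicate 2 lay at 0.238 to 0.723 of the way from replicate 1 to line 2 (median 0.567), and that in replicate 3 at -0.0250 to 0.511 (median 0.308). The exception at the low end was the A01 segment from 3706 to 3773, with 553, 566 and 597 TPM in line 2, against 941, 702 and 949.9 TPM in wild type, where replicate 3 did not move towards line 2. The dot plot of segments shows replicates 2 and 3 between replicate 1 and line 2 in the other 11.

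**Figure D5:**
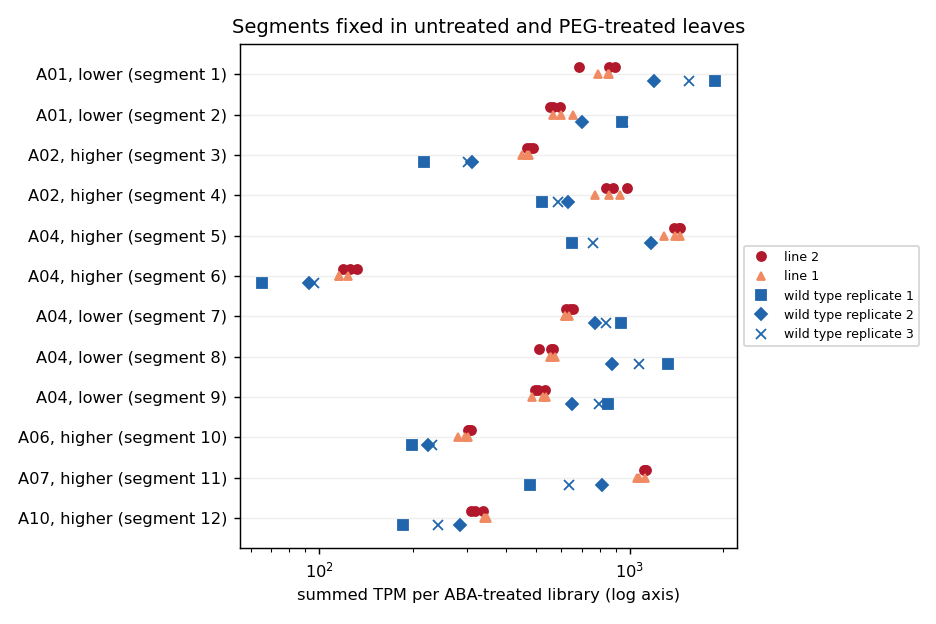
Summed TPM per ABA-treated library (horizontal axis, log scale) of the 12 chromosome segments (rows), with circles for line 2, triangles for line 1, and a square, a diamond and a cross for wild type replicates 1, 2 and 3. In every row the line 2 libraries stand apart from the wild type libraries, and replicate 1 is farthest from line 2 in all rows but the second, where replicate 3 reaches 949.9 TPM.

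The share of genes called differed between chromosomes. Chromosome A04 had 10.7% of its tested genes called (59 higher and 73 lower in line 2), A01 7.13% (41 and 88), A02 5.48% (74 and 16), A10 5.46%, A06 5.16% and A07 4.95%, against 3.13% over all genes. C01 had the highest share among C chromosomes, 4.58%. With wild type replicate 1 alone A04 again stood highest, with 9.74%. For the summed output of the subgenomes, the ratio of A to C sums was 0.737 ± 0.00609 in line 2 and 0.744 ± 0.0109 in wild type (SD, n = 3 each), a difference of -0.00688 that is larger than the SD in line 2 and smaller than that in wild type, with an exact two-sided permutation p of 0.4.

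With all wild type libraries, genes that respond to ABA had a median difference near that of all genes, in either direction of response. Genes raised or lowered at least 2-fold by ABA were taken from the wild type of the knockout experiment, which shares no library with the comparison. That wild type carries another library label, and whether it is the same line was not tested. Of 2105 raised genes tested, 52 were called higher in line 2 (2.47%, against 1.84% of all genes) and 61 lower (2.90%, against 1.29%), and their median difference was 0.02, against 0.04 over all genes. With wild type replicate 1 alone the median of the raised genes was -0.068, on the other side of 0, with 25 called higher (1.19%, against 1.46% of all genes) and 43 lower (2.04%, against 0.931%). Of 2780 lowered genes, 73 were called higher (2.63%) and 24 lower (0.863%), with a median of 0.01. With replicate 1 alone 75 were called higher (2.70%) and 9 lower (0.324%), with a median of 0.04. Against replicate 2 the median of the lowered genes was 0.11 and against replicate 3 it was -0.12, so the value near 0 averages opposite signs. Genes not called or under 2-fold for ABA had medians of 0.11 and -0.02 there. The value against replicate 2 was thus not particular to the lowered genes. Over all genes the median difference with replicate 1 alone was 0.035. The raised genes responded to ABA by a median of 1.382 on the log2 scale in line 2 and 1.501 in wild type (1.56 with replicate 1). The lowered genes responded by -0.47 in line 2 and -0.55 in wild type. The difference under ABA minus that in untreated leaves had a median of -0.11 in raised and 0.07 in lowered genes, against -0.004 over all genes. With replicate 1 alone these medians were -0.21 and 0.11, against -0.009.

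Whether the difference between line 2 and wild type under ABA departed from that in untreated leaves was tested as an interaction. It was called for 12 of 40056 genes (0.03%, limma), 3 with a higher (0.00749%) and 9 with a lower difference under ABA (0.0225%), while 2527 had an unadjusted p under 0.05. With replicate 1 alone it was called for 24 genes (0.0599%), 7 higher (0.0175%) and 17 lower (0.0424%), and 6 genes were called both ways. The named gene was BnaA01G0319400ZS, lower under ABA, whose values are identical in every library to those of Bnascaffold0025G0000500ZS. It had 1.13, 1.09 and 1.17 TPM in ABA-treated line 2, against 9.37, 5.30 and 7.78 TPM in ABA-treated wild type, while untreated line 2 had 0.168, 0.207 and 0.105 TPM and untreated wild type 0.538, 0.513 and 0.486 TPM. Wild type thus stood above line 2 in every library of both treatments, and all 6 untreated libraries were under 1 TPM, where the added constant of 1 shrinks a difference. The interaction was -1.58 (SE 0.25, limma adjusted p = 0.0102), and -1.90 (SE 0.27, limma adjusted p = 0.00541) with replicate 1 alone. It was not called with 0.1 as the added constant (-1.33, SE 0.39, limma adjusted p = 0.340) or without untreated line 2 replicate 2 (-1.55, limma adjusted p = 0.0514), and over all other settings run the adjusted p was 0.00159 to 0.0425. The count of interactions depended on single libraries: it was 161 (24 higher, 137 lower) without ABA-treated wild type replicate 1, 48 without untreated line 2 replicate 3, 20 without untreated wild type replicate 2 and 4 without untreated line 2 replicate 2. Settings moved it as well, to 44 with 5 added before the logarithm and to 21 without the 1 TPM minimum, with quantile normalization or without a mean trend.

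The table gives values per transcript, so transcripts of 1 gene could be compared. Of 41240 transcripts tested, 1262 were called (3.06%, limma), 745 higher and 517 lower in line 2. With replicate 1 alone 959 were called (2.33%), 584 higher and 375 lower. Of 1216 genes with at least 2 transcripts tested, 27 had any called, and in 4 of them transcripts were called in opposite directions: BnaA04G0076900ZS, BnaA01G0346300ZS, BnaA01G0424300ZS and BnaC05G0521600ZS, named after their values were seen. With replicate 1 alone 3 of the 4 still had calls in both directions. As sums over transcripts, BnaC05G0521600ZS (log2 difference -0.96, limma adjusted p = 2.44e-05) and BnaA01G0424300ZS (-0.61, limma adjusted p = 0.0153) were also called lower, while BnaA01G0346300ZS (-0.55, limma adjusted p = 0.172) was not called. In BnaA04G0076900ZS the transcript higher in line 2 made up 98.7%, 99.3% and 100% of the gene's TPM in line 2, against 8.03%, 18.5% and 12.3% in wild type. The gene's sum was alike, at 47.0, 45.9 and 46.5 TPM in line 2, against 45.4, 37.5 and 42.4 TPM in wild type (log2 difference 0.16, SE 0.10, limma adjusted p = 0.594). In untreated leaves the transcript made up 98.3% to 98.8% in line 2, against 3.81% to 8.83% in wild type. All 3 ABA-treated wild type libraries thus kept the other transcript as the main one.

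In BnaA01G0346300ZS the transcripts higher in line 2 made up 51.8%, 51.2% and 46.7% of the gene's TPM in line 2, against 1.42%, 1.13% and 1.08% in wild type. Here the share in replicates 2 and 3 was no higher than in replicate 1. The gene's transcripts lower in line 2 summed to 86.7, 48.9 and 61.3 TPM in wild type, against 19.4, 23.1 and 23.7 TPM in line 2. By that level replicates 2 and 3 stood nearer to line 2 than replicate 1 did. The values of its 5 transcripts come in 2 identical sets, so the deposited estimates do not tell the members of a set apart. In BnaC05G0521600ZS the share was 84.4%, 87.0% and 70.4% in line 2, against 0%, 16.5% and 0.000387% in wild type, so replicate 2 alone left the level of untreated wild type, where it was listed at 0% in all 3 libraries. In BnaA01G0424300ZS it averaged 26.1% ± 14.7 in line 2 and 0.429% ± 0.742 in wild type (SD, n = 3 each). The 4 genes were chosen on these same libraries, so the separation of their shares is a description. In line 1 under ABA the shares ran from 20.6% to 31.6%, 46.6% to 50.9%, 75.1% to 92.4% and 98.5% to 99.4% in BnaA01G0424300ZS, BnaA01G0346300ZS, BnaC05G0521600ZS and BnaA04G0076900ZS.

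Copies with the same deposited values limit what a single identifier can show. Of the genes tested, 889 had values identical in all libraries to those of another gene, 35 of the 1253 called genes among them, and the calls came from 1233 distinct profiles. For the near-identical copies of a polyploid genome, the division of shared reads by the authors' estimation also bears on each copy's value.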

How the data were processed

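The authors deposited 1 table with separate blocks for the overexpression experiment (27 libraries) and the knockout experiment (18). Overexpression values are TPM per transcript in the deposited table, recognised by a sum of 1000000 in each library, and were summed to 100919 genes. Knockout values are a normalized signal per gene whose unit the authors do not state, used only to class genes by ABA response and to see whether genes were listed. The submitters' processing notes list kallisto 0.51.1, sleuth 0.30.1, DESeq2 1.38.3 and HISAT2 with no role or order. Genome build and annotation: not given in the sources used here. TPM keep no depth, so no counting interval is given.

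Genes of at least 1 TPM in at least 3 of the 6 ABA libraries were tested with limma 3.58.1 in R 4.3.3 on log2(TPM+1), a scale that understates changes of low genes (all 27 libraries sharing the spread, mean trend, Benjamini-Hochberg adjustment, threshold 0.05). Replicate 1 alone used 25 libraries. Lists, segments and the untreated and PEG comparisons used the 18 libraries without ABA. Up to 2 identifiers per direction were named, by size of difference among genes called at 2-fold or more, of at least 5 TPM in the higher group, without overlap and called with replicate 1 too. For replicate 1 alone they came from genes called only there, and for the interaction from genes called both ways and not called untreated. The members and lists were chosen with earlier results of these data known. Replicate numbers did not pair the libraries (closing section). The fit was first checked on made-up values with known changes. Alternatives covered the added constant, filters, quantile normalization, the libraries in the fit, the trend, a replicate block, leaving out single libraries, and leaving out the list and segment genes.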

Additional observations from a re-analysis of the deposited data

Results flagged for a closer look

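The difference between line 2 and wild type under ABA departed from that in untreated leaves in 12 genes by the interaction in limma, 3 with a higher and 9 with a lower difference under ABA. With wild type replicate 1 alone 24 genes departed, 7 higher and 17 lower, and 6 genes were called both ways. Of the 12 genes 1 lay in the line-only or wild-type-only lists or the segments, and of the 24 genes 5 did, where these lists and segments held 371 (0.926%) of the genes tested.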

How the results depend on the processing

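Counts of genes called moved most. Between line 2 and wild type, 1253 calls became 537 with only the 6 ABA libraries in the fit, and leaving out single libraries gave 676 to 1354. Among genes of at least 5 TPM 789 were called, of 20446 genes tested in place of 40056. Without the 1 TPM minimum 72056 genes were tested. With list and segment genes left out before the fit, 1005 were called (600 higher, 405 lower), and quantile normalization gave 1578 (819 and 759). With replicate 1 alone, 956 became 1527 without the 1 TPM minimum and 557 among genes of at least 5 TPM, and 800 to 833 without single line 2 libraries. The 12 interactions became 44 with 5 added before the logarithm, 21 each without the minimum, with quantile normalization and without a mean trend, and 4 to 161 without single libraries. Calls repeated in untreated leaves went to 552 from 862 among genes of at least 5 TPM. The median of segments higher in line 2, 0.57, was 0.26 with 5 added and 0.42 to 0.66 without single libraries. That of ABA-raised genes, 0.02, was -0.068 with wild type replicate 1 alone and -0.01 to 0.07 without single libraries. The cause of these moves was not tested, beyond the smaller number of genes or libraries in some. None of the 1253 called genes changed sign in the 16 refits of that comparison, 741 and 1076 of them having a value with the 5 TPM minimum and with list and segment genes left out. For the 1237 of them without overlap between line 2 and wild type, most of these refits could not change the sign. The 4 genes named for line 2 against wild type kept their calls under all 15 alternatives run for them, and the named interaction lost its call under 2. Same-numbered line 2 and wild type libraries did not deviate together (correlations of -0.04, -0.05 and -0.06), and with a replicate block the counts were 1166, 9 interactions and 861 with replicate 1 alone. Limits are the 3 libraries per group, unknown depth, identifiers without names, and a wild type group whose replicates 2 and 3 hold line-only genes.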

Other observations

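The share of genes called between line 2 and wild type rose with expression level: 2.80% of genes with a mean under 5 TPM, 3.22% from 5 to 20 TPM, 3.70% from 20 to 100 TPM and 4.46% at 100 TPM and over. The median size of the called differences was 0.90 to 0.93 on the log2 scale in all 4 ranges.

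The wild type of the knockout experiment, labelled differently from that of the overexpression experiment, did not lack all line-only genes. Of the 9 line-only genes listed there, 5 had a value of at least 1 in all 3 untreated wild type libraries of that experiment and 1 did under ABA and under PEG. Of the 14 wild-type-only genes listed there, 11 had such values in untreated and in ABA-treated wild type and 12 in PEG-treated wild type.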
